A study of Mus musculus with 24 samples.

Results

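The genes described here are 39 genes of the sarcomere and of muscle isoform families, out of 18193 genes measured in mouse heart and liver. They were taken from a fixed list of names and matched to the array's table of probe sets and genes. In all, 74 probe sets were annotated to 1 of these genes alone, and where a gene had several, the one with the greatest mean across the 24 arrays stood for it. The list held 10 isoforms typical of heart muscle, 15 isoforms typical of skeletal muscle and 14 sarcomere genes shared by both muscles. The study measured RNA in heart and liver of SV129 mice, wild type (WT) or lacking Ppara (KO), which encodes PPARα, a nuclear receptor that responds to fatty acids. Each sex and genotype had 12 mice aged 10 to 12 weeks, all sampled at zeitgeber hour 14, and RNA was pooled from 4 mice, giving 3 pools in each of 8 groups and 24 arrays. Pools 1 to 3 were WT males, pools 4 to 6 KO males, pools 7 to 9 WT females and pools 10 to 12 KO females, in heart and in liver alike. Values are log2 intensities, ± gives the SD over pools, and a gene is said to have passed where limma gave an adjusted p below 0.05, adjusting over every gene measured. In bulk tissue, more cells of a type and more RNA per cell cannot be told apart.

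The sarcomere is the repeating unit of striated muscle, in which myosin motors of the thick filament pull on actin in the thin filament. Troponin and tropomyosin on the thin filament let calcium switch contraction on, and titin, nebulin and the proteins of the Z-disc and M-band hold the filaments in place. Heart, slow skeletal and fast skeletal muscle build the same machine from different gene copies, so the isoforms present also mark the kind of muscle fibre in a sample. Adult mouse ventricle is known for alpha myosin heavy chain (Myh6) as its main motor, and rodent hearts under load are known to switch on Myh7 and Acta1.

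Heart and liver pools carried the markers of their labelled tissue. The median of 6 heart muscle markers outside the list was 8.83 to 9.11 in the heart pools and 2.47 to 2.65 in the liver pools. Ppara was lower in KO than in WT hearts by 1.53 in females, by 1.25 in males and by 1.49 in males without pool 4. Heart pool 4, labelled KO male, stood apart, since Xist, a transcript of female cells, was 6.62 there, between the 5 remaining male pools (3.12 or lower) and the female pools (7.32 or higher), while Eif2s3y, a Y-linked gene, was 4.49 against 4.64 to 5.67 in those 5. Its Ppara was 6.13, against 5.38 and 5.45 in KO male pools 5 and 6 and 6.73 to 7.07 in WT males. Its lung secretoglobin Scgb1a1 was 5.98 against 2.37 to 2.79 in the other 11 hearts. Heart pool 10, labelled KO female, had Eif2s3y at 3.34 against at most 2.50 in the other female hearts, and albumin (Alb), a liver transcript, at 7.94 against at most 5.02 in the other hearts. Male results below are given with and without pool 4, and the calls in females are also given without both.

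None of the 10 cardiac isoforms passed in females, where the differences of KO from WT ran from −0.10 to 0.18 with a median of 0.04. None passed in males either, with differences from −0.05 to 0.48 and a median of −0.02, or from −0.08 to 0.44 and a median of −0.03 without pool 4. Over all genes 0.533% were called in females and 0.401% in males, with and without pool 4. With so small a share, 0 of 10 does not set these isoforms apart. The 95% confidence intervals of the 10 genes lay between −0.35 (Myh7) and 0.37 (Mybpc3) in females and between −0.22 (Myh6) and 0.73 (Myh7) in males. For Myh7 in males the interval lay above 0, and its values follow those of the brighter isoforms.

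Among the motors and light chains, Myh6, the main myosin of adult mouse ventricle, measured 13.21, 13.05 and 13.11 in WT males, 13.14, 12.99 and 13.09 in KO males, 13.17, 13.17 and 13.19 in WT females and 13.22, 13.19 and 13.23 in KO females. Myl2, the regulatory light chain of ventricular myosin, measured 13.56, 13.53 and 13.57 in WT males, 13.54, 13.43 and 13.54 in KO males, 13.55, 13.57 and 13.53 in WT females and 13.63, 13.61 and 13.52 in KO females. Myl3, the essential light chain of ventricular myosin, measured 13.11, 13.00 and 13.15 in WT males, 13.09, 13.03 and 13.10 in KO males, 13.00, 13.10 and 13.07 in WT females and 13.13, 13.12 and 13.08 in KO females. KO and WT pools overlapped for Myl2 and Myl3 in both sexes and for Myh6 in males, and for Myh6 in females the lowest KO pool equalled the highest WT pool to 2 decimals. KO minus WT was 0.04 in females, −0.05 in males and −0.08 in males without pool 4 for Myh6. In the same order it was 0.04, −0.05 and −0.07 for Myl2, and 0.05, −0.02 and −0.02 for Myl3. The other probe set of Myh6, 1417729_at, had a lower heart mean of 9.44. Its KO minus WT was 0.34 in females, where the pools overlapped, 0.11 in males and 0.02 in males without pool 4.

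In the thin filament, cardiac actin (Actc1) measured 13.44, 13.36 and 13.37 in WT males, 13.41, 13.28 and 13.41 in KO males, 13.32, 13.30 and 13.36 in WT females and 13.48, 13.44 and 13.39 in KO females. Tnnt2, the troponin subunit that binds tropomyosin in heart, measured 13.22, 13.16 and 13.21 in WT males, 13.22, 13.08 and 13.18 in KO males, 13.21, 13.22 and 13.17 in WT females and 13.27, 13.24 and 13.24 in KO females. Tnni3, the inhibitory troponin subunit of heart, measured 12.57, 12.57 and 12.60 in WT males, 12.62, 12.63 and 12.69 in KO males, 12.64, 12.66 and 12.57 in WT females and 12.55, 12.61 and 12.57 in KO females. All 3 KO female pools lay above the WT female pools for Actc1 and Tnnt2, and Tnni3 was higher in all 3 KO male than in all WT male pools. The female differences were 0.11 (limma, adjusted p = 0.851) and 0.05 (limma, adjusted p = 0.97), and the male difference of Tnni3 was 0.07, or 0.08 without pool 4. Male differences with and without pool 4 were −0.02 and −0.04 for Actc1 and −0.04 and −0.07 for Tnnt2. The highest value of any probe set on a heart array was 13.64 to 13.97, so these transcripts sat near the top of the scale, where an array may compress a difference, and whether it did so here was not tested.

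Myh7, the slow beta myosin heavy chain, had the widest range of the cardiac isoforms. It measured 6.88, 6.53 and 7.12 in WT males, 7.41, 7.35 and 7.21 in KO males, 7.22, 7.24 and 7.10 in WT females and 7.14, 7.03 and 7.10 in KO females. The KO male pools lay above the WT male pools, while the female pools overlapped. KO minus WT was 0.48 in males (95% CI 0.23 to 0.73, limma, adjusted p = 0.157), 0.44 without pool 4 (limma, adjusted p = 0.408) and −0.10 in females (limma, adjusted p = 0.951). Without WT male pool 3, the highest of its group, the male difference passed. It was the WT male pool nearest the KO males, so leaving it out could only widen the difference. Mybpc3, cardiac myosin binding protein C, differed by 0.18 in females, 0.13 in males and 0.20 in males without pool 4. Tnnc1, the calcium-binding troponin of heart and slow muscle, differed by 0.08, −0.05 and −0.06, and Myoz2, a Z-disc protein that binds calcineurin, by −0.01, −0.02 and 0.01.

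**Figure D1:**
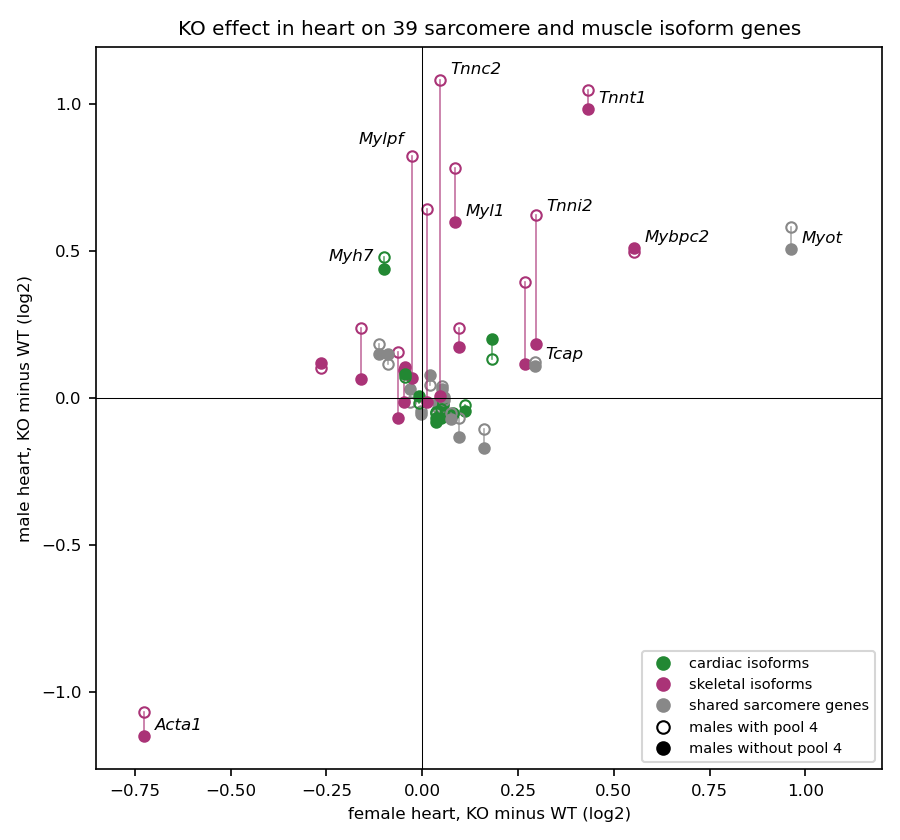
KO minus WT in male heart (vertical axis, log2) against KO minus WT in female heart (horizontal axis, log2) for all 39 genes, coloured by class, with open circles for males with pool 4 and filled circles for males without it. Most cardiac isoforms gather near 0, Myh7 lies at 0.48 on the male axis, Myot lies at 0.96 on the female axis, and Tnnc2 and Mylpf drop to near 0 on the male axis when pool 4 is left out.

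Outside the cardiac isoforms, a few sarcomere genes rose in KO hearts. In females, Myot and Mybpc2 passed, 2 of 39 genes or 5.13%, both higher, against 0.533% of all genes called (0.121% called higher and 0.412% called lower). In males, Myot, Tnnt1 and Myl1 passed, 3 of 39 or 7.69%, all higher, against 0.401% of all genes called (0.0824% higher). The same 3 passed without pool 4, where 0.401% of all genes were called, and the same 2 passed in females when pool 4 was left out of the fit (background 0.495%). None of the 39 passed as lower in either sex. The median difference over the 39 genes was 0.05 in females, beside −0.01 over all genes tested, and the median size of a difference was 0.074, beside 0.076 over all genes. In males the median difference was 0.09 over the 39 and 0.00 over all genes, and the median size 0.102 and 0.0755. Without pool 4 these were 0.03 and 0.01, and 0.0777 and 0.086.

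Myot encodes myotilin, a Z-disc protein that binds alpha-actinin and cross-links actin filaments. It measured 6.77, 6.79 and 6.76 in WT males, 7.51, 7.33 and 7.23 in KO males, 6.41, 6.54 and 6.54 in WT females and 7.51, 7.55 and 7.32 in KO females. Every KO pool lay above every WT pool of either sex. In females Myot was 7.46 ± 0.12 in KO and 6.50 ± 0.07 in WT (n = 3 pools each), a 1.95-fold rise (log2 difference 0.96, SE 0.09, 95% CI 0.77 to 1.16, limma, adjusted p = 3.02e-05). In males it was 7.36 ± 0.14 and 6.77 ± 0.02 (n = 3 each), a 1.5-fold rise (0.58, 95% CI 0.39 to 0.78, limma, adjusted p = 0.0046). Without pool 4 the male rise was 1.42-fold (0.51, limma, adjusted p = 0.0349), and 11 of 19 other settings of that smaller comparison lost the call. Without pools 4 and 10 Myot still passed in females, while in males its adjusted p was 0.0582 (limma). The female difference exceeded the male one by 0.38, which did not pass (limma, adjusted p = 0.978).

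Tnnt1 encodes the tropomyosin-binding troponin of slow skeletal fibres. It measured 4.49, 4.36 and 4.79 in WT males, 5.72, 5.48 and 5.58 in KO males, 4.74, 4.79 and 4.55 in WT females and 5.29, 5.12 and 4.97 in KO females. KO pools lay above WT pools in each sex, and the 3 KO male pools were the highest of the 12. In males Tnnt1 was 5.59 ± 0.12 in KO and 4.55 ± 0.22 in WT (n = 3 each), a 2.07-fold rise (1.05, SE 0.12, 95% CI 0.79 to 1.30, limma, adjusted p = 0.00019). Without pool 4 the rise was 1.98-fold (0.98, limma, adjusted p = 0.00162). In females the difference was 0.43 (95% CI 0.18 to 0.69), which did not pass (limma, adjusted p = 0.238). The female minus male difference of the KO effect was −0.61, or −0.55 without pool 4, and neither passed (limma, adjusted p = 0.978 with pool 4).

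Mybpc2, myosin binding protein C of fast skeletal fibres, measured 4.78, 4.46 and 4.89 in WT males, 5.17, 5.29 and 5.15 in KO males, 4.67, 4.49 and 4.46 in WT females and 5.13, 5.12 and 5.03 in KO females. Every KO pool lay above every WT pool. Females had 5.09 ± 0.06 in KO and 4.54 ± 0.11 in WT (n = 3 each), a 1.47-fold rise (0.55, SE 0.11, 95% CI 0.33 to 0.78, limma, adjusted p = 0.0256). Without pools 4 and 10 the call was lost, as it was without any single pool among 8, 9, 11 and 12 and without pool 10 alone. The male difference was close in size at 0.50 (95% CI 0.27 to 0.72) and did not pass (limma, adjusted p = 0.0664), nor did the 0.51 without pool 4 (limma, adjusted p = 0.144). The female difference exceeded the male one by 0.06 (95% CI −0.26 to 0.38).

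Myl1, the essential light chain of fast skeletal myosin, measured 6.10, 6.16 and 6.02 in WT males, 7.24, 6.72 and 6.66 in KO males, 5.87, 5.90 and 5.82 in WT females and 6.14, 5.83 and 5.87 in KO females. The KO male pools lay above all others, and the female pools of both genotypes overlapped. In males Myl1 was 6.88 ± 0.32 in KO and 6.09 ± 0.07 in WT (n = 3 each), a 1.72-fold rise (0.78, SE 0.13, 95% CI 0.51 to 1.06, limma, adjusted p = 0.00792). Without pool 4 it was 1.51-fold (0.60, 95% CI 0.38 to 0.82, limma, adjusted p = 0.0159), and without WT male pool 3 the call was lost. In females the difference was 0.09 (95% CI −0.19 to 0.36, limma, adjusted p = 0.972). KO females were lower than KO males by 0.93 (limma, adjusted p = 0.0328), or by 0.74 without pool 4 (limma, adjusted p = 0.0208), the sole call among the 39 genes between the sexes of KO hearts, where 0.011% of all genes were called (0.022% without pool 4). This call was lost in 10 of 20 alternatives (limma, adjusted p 0.00248 to 0.571). The difference between the KO effects of the sexes was −0.70 (95% CI −1.09 to −0.30) and did not pass (limma, adjusted p = 0.978).

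**Figure D2:**
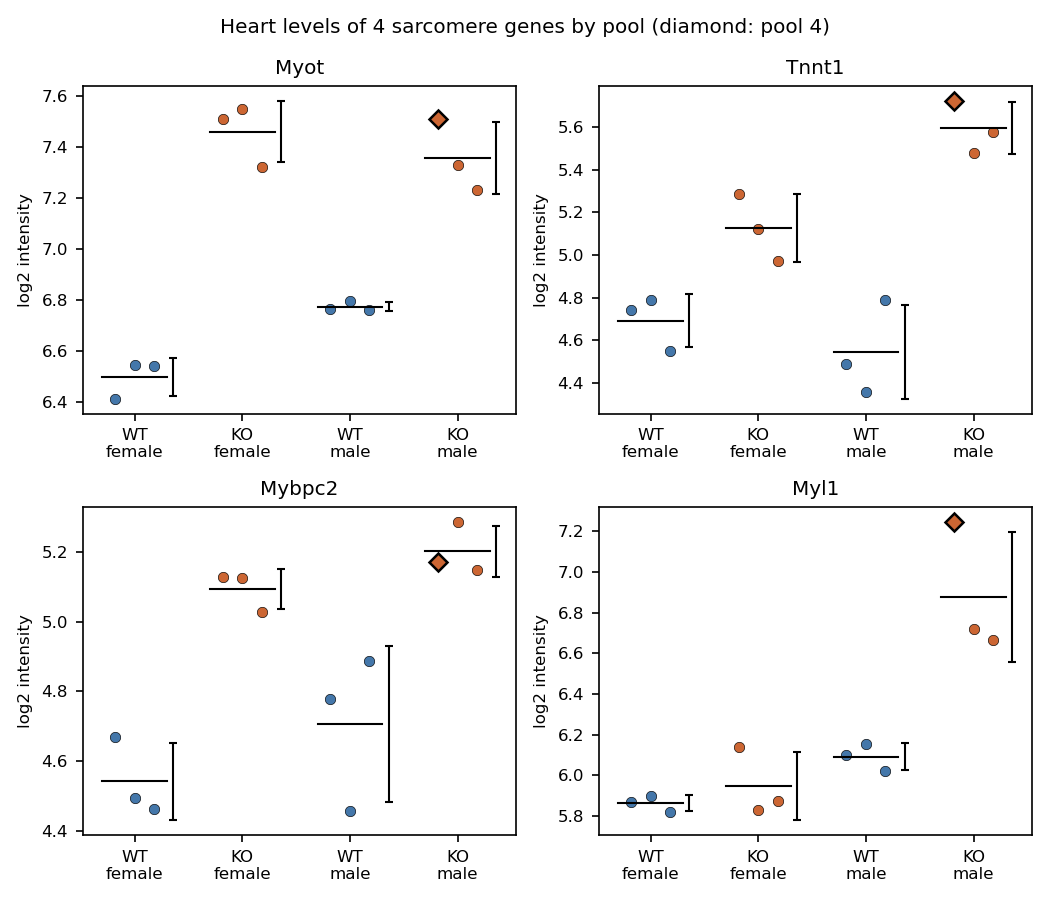
Log2 intensity of Myot, Tnnt1, Mybpc2 and Myl1 in each heart pool by group, with a line at the group mean, a bar of 1 SD to each side and a diamond for pool 4. Each KO pool lies above all WT pools for Myot and Mybpc2, and Myl1 is high in the 3 KO male pools, at 7.24, 6.72 and 6.66.

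The sequences before the starts of Tnnt1, Mybpc2 and Myl1 are shown because these are the 3 skeletal isoforms that passed in a KO heart comparison. Each run is the 250 bases before the gene's start in RefSeq, build GRCm38.p6, minus strand, at chr7:4515976-4516225 for Tnnt1, chr7:44524670-44524919 for Mybpc2 and chr1:66945057-66945306 for Myl1, with E-boxes (CANNTG, the motif read by MyoD and other basic helix-loop-helix factors) in capitals.
Tnnt1: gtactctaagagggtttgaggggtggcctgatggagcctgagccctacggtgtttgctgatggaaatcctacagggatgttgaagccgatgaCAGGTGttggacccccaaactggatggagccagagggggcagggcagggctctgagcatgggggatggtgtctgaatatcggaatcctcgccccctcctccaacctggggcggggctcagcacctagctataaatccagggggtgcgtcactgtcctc
Mybpc2: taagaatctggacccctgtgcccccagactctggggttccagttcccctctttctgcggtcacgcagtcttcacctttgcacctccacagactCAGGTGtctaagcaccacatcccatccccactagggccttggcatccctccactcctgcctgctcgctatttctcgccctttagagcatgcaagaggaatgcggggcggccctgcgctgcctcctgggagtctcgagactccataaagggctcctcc
Myl1: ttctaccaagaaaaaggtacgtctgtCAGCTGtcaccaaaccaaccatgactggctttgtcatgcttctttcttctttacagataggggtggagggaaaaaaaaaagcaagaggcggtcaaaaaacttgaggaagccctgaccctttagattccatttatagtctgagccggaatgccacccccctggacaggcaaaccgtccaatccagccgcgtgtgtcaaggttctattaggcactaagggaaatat
Each run held 1 E-box, beginning 158, 157 and 224 bases before the start. The letters TATAAA were found once in Tnnt1 on the printed strand, once in Myl1 on the opposite strand, and on neither strand in Mybpc2. The letters AGGTCA, the core of nuclear receptor sites, and their repeat with 1 base between (AGGTCANAGGTCA, the arrangement PPARα and RXR bind) were not in any of the 3 windows, and neither was the MEF2 box. Over such 250-base windows, searched on both strands, an E-box was found in 33 of 38 promoter entries of the listed genes (86.8%) and in 66.2% of 32851 mouse entries. TATAAA was found in 5 of 12 entries of skeletal isoforms (41.7%), 1 of 13 of cardiac isoforms (7.69%), 0 of 13 of shared genes and 12.4% of all entries. AGGTCA was found in 3 of 38 entries (7.89%) against 14% of all, its spaced repeat in 0 of 38 against 0.0335%, and the MEF2 box in 5 of 38 (13.2%) against 1.69%. The genes matched to entries were 31 of 39, and 8 were not matched (Tnnt3, Tnni2, Actn3, Myoz1, Myom2, Myot, Neb and Tcap).

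Some isoform genes sit side by side in the genome, and their values did not always go together. In RefSeq, no coding gene lies between Tnnt1 and Tnni3, yet Tnni3 differed by −0.04 in female and 0.07 in male KO hearts (0.08 without pool 4), beside the Tnnt1 differences given above. Myh6 and Myh7 are likewise neighbours, as are Myh2, Myh1 and Myh4, while 1 coding gene lies between Tnni2 and Tnnt3 and 1 between Tnni1 and Tnnt2.

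Much of the male difference in the other skeletal isoforms lay in 1 library. Over the 15 genes the median difference in males was 0.39 with pool 4, with 14 positive, and 0.11 without it, with 11 positive. In females it was 0.01. Pool 4 exceeded the mean of KO male pools 5 and 6 by a median of 0.52 over the skeletal isoforms, 0.04 over the cardiac isoforms, 0.03 over the shared genes and −0.01 over all genes. The excess was above 1 in 4 of the 15 skeletal isoforms (26.7%) and in 18 of all genes (0.0989%). Pool 4 was the highest of the 12 hearts in 9 of 15 skeletal isoforms, against 6.90% of all genes.

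By the probe set used for each gene, Tnnc2, Mylpf, Tnnt3 and Tnni2 had the greatest excess, and among the other probe sets of the 39 genes, 2 of Myh1 and 1 of Tnni2 also exceeded 1. Tnnc2, the calcium-binding troponin of fast fibres, measured 2.61, 2.66 and 2.72 in WT males, 5.90, 2.63 and 2.72 in KO males, 2.42, 2.70 and 2.78 in WT females and 2.69, 2.68 and 2.66 in KO females. Mylpf, the regulatory light chain of fast myosin, measured 3.21, 3.52 and 3.40 in WT males, 5.70, 3.47 and 3.42 in KO males, 3.56, 3.23 and 3.33 in WT females and 3.28, 3.33 and 3.44 in KO females. In both genes pool 4 alone stood out, and the other 11 pools covered less than 0.5 on the log2 scale. The male difference of Tnnc2 was 1.08 with pool 4 and 0.01 without it, and that of Mylpf 0.82 and 0.07.

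Tnnt3, the tropomyosin-binding troponin of fast fibres, measured 2.43, 2.71 and 2.72 in WT males, 4.57, 2.60 and 2.62 in KO males, 2.70, 2.55 and 2.50 in WT females and 2.66, 2.72 and 2.40 in KO females. Tnni2, the inhibitory troponin of fast fibres, measured 4.07, 3.85 and 3.80 in WT males, 5.41, 4.02 and 4.17 in KO males, 3.75, 3.98 and 3.94 in WT females and 4.18, 4.23 and 4.15 in KO females. Pool 4 was again the highest in both, and for Tnni2 the 3 KO female pools also lay above the WT female pools. That holds for the Tnni2 probe set used, 1438609_x_at. On 1416889_at the female pools overlapped. Probe set 1438608_at differed by −0.08 in females, and its pool 4 exceeded pools 5 and 6 by 0.12. Male differences went from 0.64 to −0.01 for Tnnt3 and from 0.62 to 0.18 for Tnni2 when pool 4 was left out. None of the 4 fast troponin and light chain genes passed in either case.

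Among the fast myosin heavy chains, the excess depended on the probe set. Myh2, the motor of fast oxidative fibres, measured 3.01, 2.95 and 3.27 in WT males, 4.02, 3.13 and 3.26 in KO males, 3.22, 3.04 and 3.08 in WT females and 3.44, 3.31 and 3.40 in KO females. Myh4, the motor of the fastest fibres, measured 2.45, 2.84 and 2.47 in WT males, 3.20, 2.54 and 2.50 in KO males, 2.54, 2.58 and 2.61 in WT females and 2.51, 2.62 and 2.41 in KO females. Mybpc1, myosin binding protein C of slow fibres, measured 2.67, 2.90 and 2.71 in WT males, 3.35, 2.84 and 2.81 in KO males, 2.79, 2.93 and 2.93 in WT females and 2.70, 2.85 and 2.61 in KO females. Pool 4 was the highest of the 12 for each of these 3 genes, and male differences with and without it were 0.39 and 0.12 for Myh2, 0.16 and −0.07 for Myh4, and 0.24 and 0.06 for Mybpc1. For Myh1, a further fast motor, the probe set used read 2.56 in pool 4 and 2.26 to 2.79 over all hearts, but its other probe sets 1427520_a_at and 1427868_x_at read 5.79 and 5.22 in pool 4, an excess over pools 5 and 6 of 3.51 and 2.89, beside 3.22 for Tnnc2. Their male differences were 1.23 and 1.02 with pool 4 and 0.06 and 0.06 without it. Probe sets of the myosin heavy chain family can bind related transcripts.

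**Figure D3:**
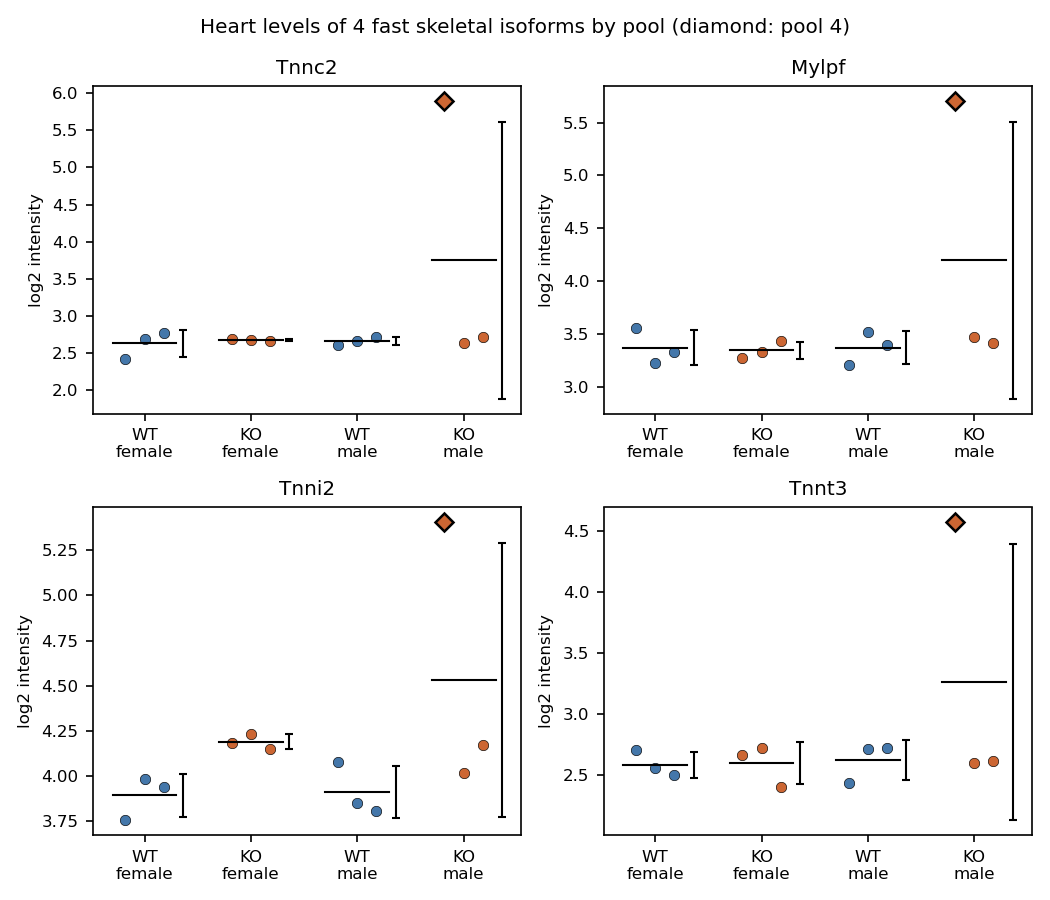
Log2 intensity of Tnnc2, Mylpf, Tnni2 and Tnnt3 in each heart pool by group, with a line at the group mean, a bar of 1 SD to each side and a diamond for pool 4. Pool 4 lies at 5.90 for Tnnc2 and 5.70 for Mylpf, while the other 11 pools of each gene lie close together.

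**Figure D4:**
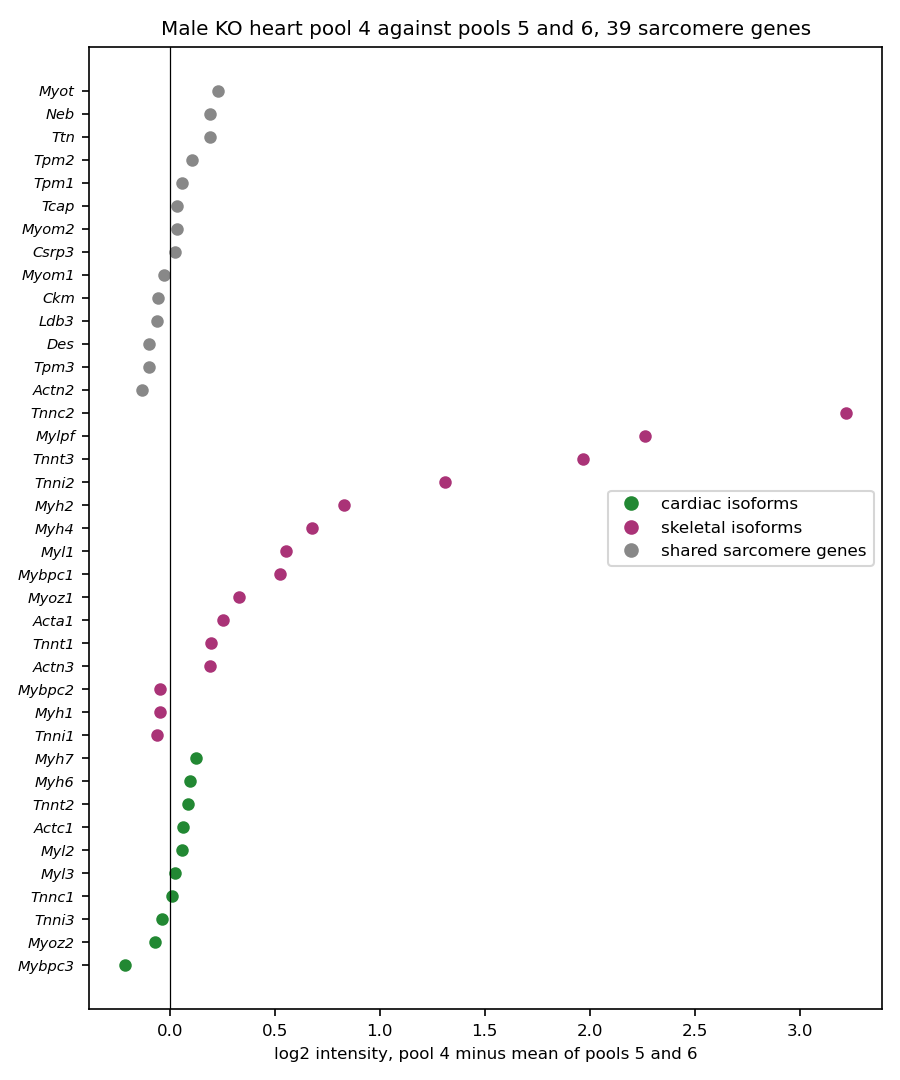
Heart pool 4 minus the mean of KO male pools 5 and 6 (log2) for each of the 39 genes, by class. The skeletal isoforms reach 3.22 (Tnnc2), while the cardiac isoforms run from −0.21 to 0.13 and the shared genes from −0.13 to 0.23.

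Markers of other tissues were set beside this excess, and their part in it was not tested. All 4 atrial markers were highest in pool 4, against 6.9% of all genes, with a median excess over pools 5 and 6 of 0.21. No smooth muscle, fibroblast, endothelial, erythroid or hepatocyte marker was highest there. Pool 4 was highest for 2 of 4 adipocyte, 1 of 3 brown adipocyte and 1 of 3 lung markers. The same held for 1 of 5 immune and thymus markers and 2 of 13 skeletal muscle markers outside the list. Atp2a1, the calcium pump of fast skeletal fibres, was 6.69 in pool 4 and 4.04 to 4.51 in the other hearts. The 3 lung markers summed to 85.8 on the linear intensity scale in pool 4 and to at most 31.3 in the other 11 hearts. Only 1 of the 3, Scgb1a1, exceeded the mean of pools 5 and 6 by more than 1, and the median excess was 0.12. Over 13 skeletal muscle markers outside the list, the median in pool 4 was 2.91, within the 2.80 to 3.09 of the others. Their summed intensity ran from 177 to 202 in WT males, from 312 to 404 in KO males with pool 4 the highest, from 160 to 169 in WT females and from 237 to 296 in KO females, and 5 to 9 of the 13 lay below the median gene in each heart. Adipocyte markers (4 genes) summed to 1850 to 2020 in WT males, 2030 to 2830 in KO males with pool 4 the highest, 1680 to 2060 in WT females and 2190 to 2470 in KO females. These sums weigh the brightest gene most. In females 1 of the 4 was higher in KO and 3 were lower, with a median log2 difference of −0.12. In males 2 were higher and 2 lower (median 0.08), or 1 and 3 without pool 4 (median −0.19). The sums of the 13 skeletal markers, like Myot, Tnnt1 and Mybpc2, were higher in KO hearts. They are led by Casq1, the calcium buffer of fast-fibre sarcoplasmic reticulum. Casq1 was the 1 call among the 13 in each sex (7.69%, against 0.533% of all genes in females and 0.401% in males). The median difference of the 13 was 0.08 in each sex, with 4 lower in females and 5 in males. Summed over the 15 skeletal isoforms, intensity was 466 to 615 in KO and 628 to 886 in WT females. In males it was 603 to 943 in KO and 690 to 1330 in WT. Casq1 rose 2.84-fold in female KO hearts (log2 difference 1.51, SE 0.18, limma, adjusted p = 0.000237), by 1.58 in males (limma, adjusted p = 0.000179) and by 1.64 without pool 4 (limma, adjusted p = 0.000646).

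Acta1, skeletal alpha-actin, went the other way without passing. It measured 10.05, 10.12 and 8.88 in WT males, 8.79, 8.78 and 8.29 in KO males, 8.68, 9.39 and 8.77 in WT females and 8.19, 8.57 and 7.91 in KO females. KO pools lay below WT pools in each sex, but the WT male pools spread over more than 1 log2 unit. KO minus WT was −0.73 in females (95% CI −1.32 to −0.13, limma, adjusted p = 0.588), −1.07 in males (95% CI −1.66 to −0.47, limma, adjusted p = 0.202) and −1.15 in males without pool 4 (limma, adjusted p = 0.298). Without WT male pool 3, whose value was the lowest of its group, the male difference passed. That pool was the WT male pool nearest the KO males, so leaving it out could only widen the difference. Among the other skeletal isoforms, Tnni1, the inhibitory troponin of slow fibres, differed by −0.04 in females, 0.09 in males and 0.11 in males without pool 4. In the same order Actn3, the alpha-actinin of fast fibres, differed by 0.10, 0.24 and 0.17, and Myoz1, a Z-disc protein of fast fibres, by −0.05, 0.10 and −0.01, and none of these passed. Myh1, by the probe set used, differed by −0.26 in females (limma, adjusted p = 0.508), 0.10 in males and 0.12 in males without pool 4.

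Among the 14 shared genes, Myot was the sole call in either sex, and the median difference was 0.05 in females, −0.01 in males and 0.02 in males without pool 4. Tcap, the titin cap at the Z-disc, measured 11.25, 11.11 and 10.84 in WT males, 11.21, 11.20 and 11.16 in KO males, 10.78, 10.72 and 10.61 in WT females and 10.95, 10.98 and 11.06 in KO females. The KO female pools lay above the WT female pools, by 0.29 (95% CI 0.08 to 0.50, limma, adjusted p = 0.426), and the male pools overlapped (0.12, or 0.11 without pool 4). Ttn, the giant spring of the sarcomere, differed by 0.16 in females, −0.11 in males and −0.17 in males without pool 4. In the same order Actn2, the main Z-disc actinin of heart, differed by −0.03, −0.01 and 0.03, and Neb, the thin filament ruler, by 0.10, −0.07 and −0.13. The tropomyosins, which lie along the actin filament, differed by 0.07, −0.05 and −0.07 (Tpm1), −0.11, 0.18 and 0.15 (Tpm2) and −0.09, 0.12 and 0.15 (Tpm3), and Myom1, an M-band protein, by 0.06, −0.01 and 0.00. Csrp3, the muscle LIM protein, differed by 0.05, 0.04 and 0.03, and Ldb3, a Z-disc adaptor, by 0.04, −0.03 and −0.01. Des, the muscle intermediate filament, differed by 0.02, 0.05 and 0.08, and Ckm, muscle creatine kinase, by 0.05, −0.03 and −0.01. Myom2, an M-band protein, stayed between 11.36 and 11.69 in all 12 hearts. By the probe sets used, 2 of the 39 genes, Neb and Myh1, lay below the median heart intensity of 3.03 in all 12 hearts. Other probe sets of Myh1 were above it in pool 4. Tnnc2, Tnnt3, Myh4 and Mybpc1 lay above it in pool 4 alone. At such levels little can be read from a small difference.

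By position of the pools alone, 12 of the 39 genes had all 3 KO female pools above the WT female pools and 1 had them below, against 5.57% and 6.58% of all genes. In males 8 were above and 2 below, against 5.91% and 5.46% of all genes. Without pool 4, with 2 KO pools, 9 were above and 4 below, against 11.7% and 9.64% of all genes. The 12 in females were Tnnt2, Tnnc1, Actc1, Mybpc3, Myh2, Tnnt1, Tnni2, Mybpc2, Tpm1, Myot, Tcap and Ckm, 4 from each class, and most of their differences were small. The 8 in males were Myh7, Tnni3, Myh1, Myl1, Tnnt1, Mybpc2, Tpm2 and Myot.

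The sexes were compared directly. None of the 39 genes passed for a KO effect that differed between the sexes, and none of all genes did. At an unadjusted p under 0.05 in limma, 7 of the 39 and 820 of all genes (4.51%) did, and without pool 4 it was 6 of the 39 and 925 of all genes (5.08%). Between WT females and WT males none of the 39 passed in limma, and 5 did at an unadjusted p under 0.05 (6.18% of all genes), where 0.0275% of all genes passed. By position of the pools, 0 of the 39 were higher in all 3 WT female than in all 3 WT male pools and 8 were lower (Tnnc1, Myl1, Tpm1, Myot, Neb, Tcap, Ldb3 and Ckm), against 5.5% and 5.79% of all genes (11.3% in all). Tcap had the lowest p among them and was lower in WT females than in WT males by 0.37 without overlap (limma, adjusted p = 0.666).

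A list of other sarcomere-associated genes was set beside the 39. Of 41 such genes 38 were measured, and 1 was called in each sex (2.63%). The share over all genes was 0.533% in females and 0.401% in males. Mybphl, a myosin binding protein H-like gene of atrial muscle, was lower in KO females by 0.70 (6.82 ± 0.24 against 7.51 ± 0.06, n = 3 each, limma, adjusted p = 0.0349). Fhl1, a LIM protein of the I-band, was lower in KO males by 0.50 (8.35 ± 0.06 against 8.85 ± 0.23, n = 3 each, limma, adjusted p = 0.0372), and the call was lost without pool 4 (−0.54, limma, adjusted p = 0.0758). In females Fhl1 differed by −0.46 (limma, adjusted p = 0.0594). Without pool 4, Fbxo32, a muscle ubiquitin ligase, was called lower in KO males (−0.69, limma, adjusted p = 0.0256). It was the 1 call among the 38 there, against 0.401% of all genes. Mybphl moved beside atrial markers in the same female comparison, where Myl7 differed by −0.65 (limma, adjusted p = 0.0126) and Sln by −0.71 (limma, adjusted p = 0.0169). The other 2 of the 4 atrial markers did not pass, and the 4 differences ran from −0.71 to −0.02. In males they ran from 0.09 to 0.22, or from −0.03 to 0.18 without pool 4, and none passed. The part of atrial tissue in the pools was not tested.

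In liver most sarcomere genes were dim. The highest liver pool was under 4 for 34 of the 39 genes, and 6 lay below the median liver intensity of 2.45 in all 12 pools (Tnnt2, Myh2, Myh4, Tnnt3, Myot and Ttn). The genes that reached 4 in a liver pool were Tpm1, Tpm2, Tpm3, Myom2 and Csrp3. In KO against WT liver, Csrp3 and Tpm2 passed in females and Myom2 and Csrp3 in males, all lower, against 0.813% of all genes called in females (0.451% lower) and 0.605% in males (0.434% lower).

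Myom2 in liver measured 5.80, 5.08 and 5.40 in WT males, 2.97, 2.98 and 2.97 in KO males, 2.77, 2.60 and 2.35 in WT females and 2.44, 2.06 and 2.56 in KO females. Only the 3 WT male livers were high, and the 9 other livers lay below 3. In males Myom2 was 2.97 ± 0.01 in KO and 5.43 ± 0.36 in WT (n = 3 each), a fall of 2.46 on the log2 scale (SE 0.17, 95% CI −2.82 to −2.09, limma, adjusted p = 6.15e-06). In females it was 2.35 ± 0.26 and 2.57 ± 0.21 (n = 3 each), a difference of −0.22 that did not pass (95% CI −0.59 to 0.15, limma, adjusted p = 0.957). WT female livers already lay near the liver median of 2.45, so a fall in females could not have been seen at the size found in males. The female KO effect minus the male one was 2.24 (95% CI 1.71 to 2.76, SE 0.24, limma, adjusted p = 0.0029), where 0.066% of all genes were called. WT females were lower than WT males by 2.85 on this probe set (limma, adjusted p = 4.13e-07), where 1.76% of all genes were called. Without probe sets ending in _s_at or _x_at they were lower by 0.80. KO females differed from KO males by −0.62 (limma, adjusted p = 0.111).

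The 4 probe sets of Myom2 did not give the same size. The one used, 1457435_x_at, carries a suffix for probes that can bind related transcripts. Probe set 1450917_at read 3.13, 3.09 and 3.22 in WT male and 2.36, 2.50 and 2.37 in KO male livers, a difference of −0.73, and −0.10 in females. Probe set 1438175_x_at read 3.44, 3.69 and 3.43 against 2.60, 2.99 and 2.47, a difference of −0.83, and −0.12 in females. Both ran in the same direction in males, while 1438372_at, dim in both tissues, differed by −0.01. In heart, Myom2 differed by −0.04 in males (−0.06 without pool 4) and by less than 0.01 in females.

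**Figure D5:**
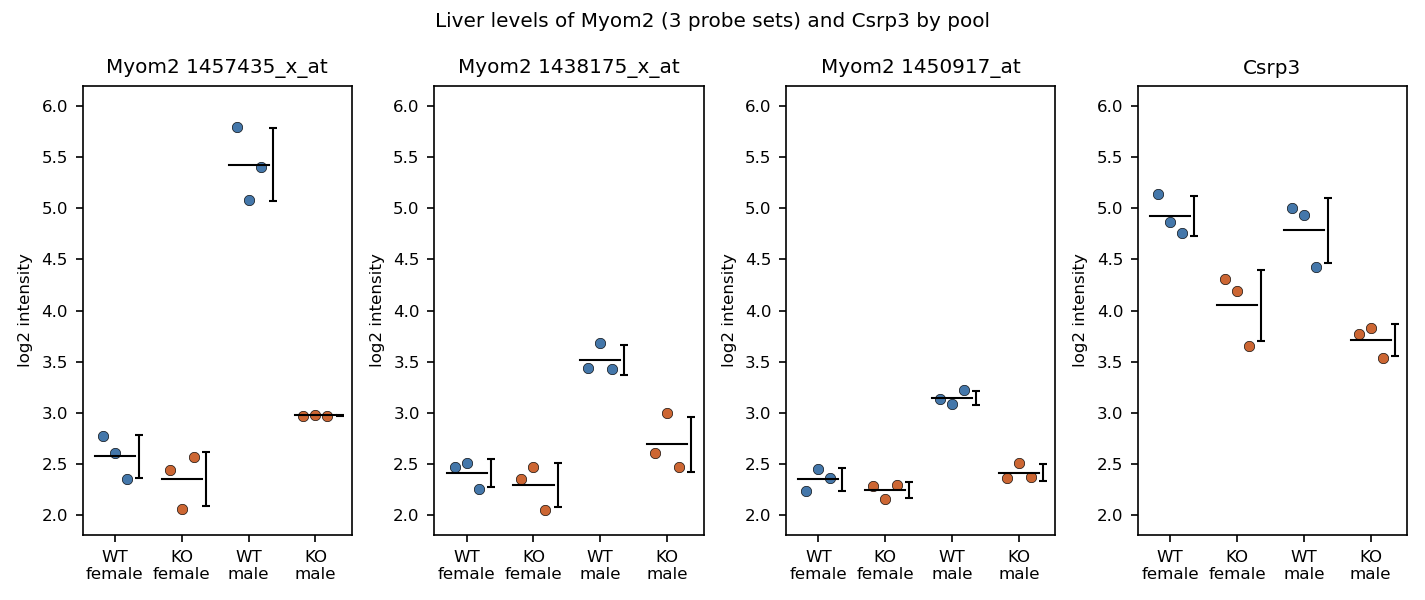
Log2 intensity in each liver pool by group for 3 probe sets of Myom2 and for Csrp3, with a line at the group mean and a bar of 1 SD to each side. WT male livers are the high group for each Myom2 probe set, at 5.80, 5.08 and 5.40 for the one used, and KO livers lie below WT livers of the same sex for Csrp3.

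Csrp3 in liver measured 5.004, 4.93 and 4.42 in WT males, 3.77, 3.83 and 3.53 in KO males, 5.14, 4.87 and 4.76 in WT females and 4.31, 4.19 and 3.65 in KO females. KO livers lay below WT livers in each sex without overlap. The fall was 2.11-fold in males (log2 difference −1.08, limma, adjusted p = 0.016) and 1.83-fold in females (−0.87, limma, adjusted p = 0.0477). The call was lost in 5 of 19 alternatives in males (limma, adjusted p up to 0.101) and in 12 of 19 in females (up to 0.222), and in heart Csrp3 differed by 0.04 and 0.05. Tpm2, beta-tropomyosin, measured 3.60, 3.48 and 3.71 in WT males, 3.51, 3.50 and 3.44 in KO males, 4.19, 4.28 and 4.08 in WT females and 3.34, 3.60 and 3.61 in KO females. WT females stood above the other 3 groups. Tpm2 was 1.59-fold lower in KO than in WT females (−0.67, limma, adjusted p = 0.00295) and, between WT livers, higher in females than in males by 0.59 (limma, adjusted p = 0.00488). In KO against WT males it differed by −0.12 (limma, adjusted p = 0.767), and the difference between the sexes in the KO effect, −0.55, did not pass (limma, adjusted p = 0.576). The other 3 probe sets of Tpm2 differed by −0.09, 0.07 and −0.06 between KO and WT female livers.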

How the data were processed

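RNA from hearts and livers was measured on 24 Affymetrix mouse arrays, and the deposited values are log2 intensities made by the authors with RMA, per the submitters' processing notes. The software version and the genome build are not given in the sources used here. Array medians were 3.01 to 3.07 in heart and 2.43 to 2.49 in liver, so levels were compared within a tissue only. Of 45101 probe sets, 64 were controls, 34945 had 1 gene, 932 several and 9160 none, and only those with 1 gene were used. No filter on dim genes was applied. Probe sets shared by Myh6 and Myh7 (2) were left out.

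The fits used limma 3.58.1 under R 4.3.3 (cell means, lmFit and eBayes, two-sided, Benjamini-Hochberg over 18193 genes, threshold 0.05), with hearts and livers fitted apart and hearts fitted again on 11 arrays without pool 4. The fits were tested on simulated data with independent noise. These held no pool like 4 or 10, so that check does not bear on those pools. The number of arrays limits the precision. Values in every pool are given for genes that passed in a heart comparison, for the 8 skeletal isoforms highest in pool 4 relative to pools 5 and 6, for 6 cardiac isoforms with the highest heart mean and for Myom2. Acta1, Tcap, Myh7, and Csrp3 and Tpm2 in liver were added after their values were seen. From each other list up to 4 genes could be named. Members and lists were chosen with earlier results of these data known. Alternatives were the compared arrays alone, a trended robust variance, array weights, renewed quantile normalization, only genes brighter than the median gene, a gene as the mean over its probe sets, no _s_at or _x_at probe sets, and each pool left out. Leaving out pools 4 and 10 together was chosen after seeing the data. Promoters are RefSeq sequences of GRCm38.p6.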

Additional observations from a re-analysis of the deposited data

Results flagged for a closer look

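Myom2 in liver stood out because its KO effect differed between the sexes in a direct test. The female effect less the male effect was 2.24 (limma, adjusted p = 0.0029), with a fall of 2.46 on the log2 scale in males (lower in 3 of 3 KO pools) and a difference of −0.22 in females, where the pools overlapped. WT female livers, at 2.77, 2.60 and 2.35, already lay near the liver median of 2.45, so a fall of the male size could not have been seen in females, and the difference between the sexes rests on the high WT male livers. Without probe sets ending in _s_at or _x_at the difference between the sexes was 0.63 and did not pass (limma, adjusted p = 0.144). The other probe sets of Myom2 gave male differences of −0.83, −0.73 and −0.01.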

How the results depend on the processing

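Over 26 results and 505 alternatives, 421 kept the direction and the side of the threshold (counts, within 1.5 times), 83 were weaker, 1 stronger and 0 reversed. Of the listed genes called in female heart, 2 became 1 (Myot) without pools 4 and 10, with pool 4 kept or left out, and leaving out single pools gave 1 to 2 in both cases. In male heart leaving out single pools gave 3 to 5 calls, the 5 without WT male pool 3 (Mybpc2, Myh7, Myot and Tnnt1 higher, Acta1 lower). Without pool 4 the 3 male calls became 1 (Tnnt1) with the compared arrays alone, and 1 to 3 with further pools left out. The 1 call between the sexes in KO heart (Myl1) became 0 with the compared arrays alone and 0 with renewed quantile normalization, and 0 to 1 with single pools left out. The cause was not tested. Myom2 in liver gave 0.63 (limma, adjusted p = 0.144) for the difference of its KO effect between the sexes without _s_at and _x_at probe sets, and 2.05 to 2.41 with single pools left out, while its male difference ran from −2.63 to −0.73 and passed throughout.

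Among single genes, Tnnt1 in males (0.95 to 1.17), Tnnt1 in males without pool 4 (0.89 to 1.10) and Myot in females (0.92 to 1.03) passed under every alternative run. Calls were lost for Mybpc2 in females in 6 of 20 alternatives (limma, adjusted p 0.00576 to 0.164), for Myl1 in males in 2 of 20, and in liver for Csrp3 in 5 of 19 in males and 12 of 19 in females. Tpm2 in female liver was lost in 2 of 19, with a difference of −0.19 over the mean of its probe sets. Without pool 4, leaving out pool 5 or 6 leaves 1 KO male pool, which is assumed to vary like the other groups. No paired analysis was possible because the groups compared share no pool numbers. Probes dim in a tissue limit what can be seen there, as for Neb in heart.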
